A study of Homo sapiens with 12 samples.

Results

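The genes of IGF-binding proteins and insulin-family receptors were followed in 2 human breast cancer cell lines with and without a SMARCA4 knockout. Members were chosen by gene symbol, as IGFBP2, IGFBP3, IGFBP4, IGFBP5, IGFBP6, IGFBP7, IGF1R, IGF2R and INSR. Of these 9 genes, 8 have a row among the 11529 genes of the table, and IGFBP5 has none. SMARCA4 encodes BRG1, an ATPase that drives nucleosome remodeling by SWI/SNF complexes. RNA sequencing covered 4 groups of 3 samples, 12 in all: MDA-MB-468 control, MDA-MB-468 SMARCA4 KO, MDA-MB-231 control and MDA-MB-231 SMARCA4 KO. Both cell lines are triple-negative; the study places MDA-MB-468 in the basal or stem-like class and MDA-MB-231 in the mesenchymal-like class. KO cells were pools, not single clones, selected with puromycin after delivery of a guide RNA against SMARCA4 by the lentiCRISPR-v2 vector. The sample titles give the controls as wild type and the descriptions as control, and neither states whether they carried a vector. For its immunoblots the paper separates parental wild-type cells from control cells that received a nontargeting vector. All values below are estimates of gene RNA level, given as log2(FPKM + 1) or as FPKM, the fragments scaled by transcript length and by the mapped fragments of the library.

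Insulin-like growth factors IGF1 and IGF2 act through IGF1R, a receptor tyrosine kinase that is closely related to the insulin receptor, INSR, and forms hybrid receptors with it. IGF2R, which is also the cation-independent mannose 6-phosphate receptor, has no kinase domain and takes up IGF2 for degradation in lysosomes. Secreted IGF-binding proteins hold most extracellular IGF, prolong its life and keep it from the receptors or release it near them, often after cleavage by a protease. IGFBP7 binds IGFs only weakly and is also studied as a matrix-associated secreted protein.

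IGFBP3 was the most abundant member in MDA-MB-468 cells, as IGFBP4 was in MDA-MB-231 cells. With SMARCA4 KO, IGFBP4 rose in the former line and IGFBP3 in the latter. The promoters of these genes are shown first, as the 250 bases directly before the start of the MANE Select transcript. They come from the RefSeq promoter table (GRCh38.p14), and an exact match placed them on GRCh37. Capitals mark the motifs found there.
IGFBP3, chr7:45960872-45961121, minus strand: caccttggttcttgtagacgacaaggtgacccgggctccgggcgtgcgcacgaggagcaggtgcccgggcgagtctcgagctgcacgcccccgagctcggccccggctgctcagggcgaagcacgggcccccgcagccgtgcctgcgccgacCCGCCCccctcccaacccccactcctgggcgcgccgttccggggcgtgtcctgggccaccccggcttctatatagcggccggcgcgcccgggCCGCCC
IGFBP4, chr17:38599452-38599701, plus strand: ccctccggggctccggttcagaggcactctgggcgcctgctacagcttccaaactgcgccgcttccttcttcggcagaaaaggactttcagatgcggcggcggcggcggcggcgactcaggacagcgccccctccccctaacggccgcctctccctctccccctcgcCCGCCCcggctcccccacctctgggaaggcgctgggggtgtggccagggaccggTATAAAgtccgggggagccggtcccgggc
In the IGFBP3 sequence the capitals are 2 copies of the GC box, GGGCGG read on the opposite strand, at bases 98 to 93 and 6 to 1 before the start. In the IGFBP4 sequence they are 1 GC box at bases 83 to 78 and a TATA box, TATAAA, at bases 29 to 24 before the start. Neither held the TEAD motif GGAATG or the AP-1 motif TGANTCA on either strand. Only these exact letters were searched, so the tatata of the IGFBP3 sequence was neither marked nor counted as a TATA box. Among 35116 promoter windows of the same length the GC box was present in 42.6%, the TATA box in 10.7%, the TEAD motif in 11.9% and the AP-1 motif in 6.57%. G and C made up 76.0% of the IGFBP3 and 71.6% of the IGFBP4 bases, against a median of 58% over all windows. Such matches are a description of the letters only, and the RNA data do not show binding. The promoter table held 8 of the 9 members and no window for IGFBP7.

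Positions are from GENCODE 44 mapped to GRCh37. IGFBP3, at chr7:45951844-45961473 on the minus strand, has 5 exons and lies 18.6 kb from IGFBP1, a liver-secreted family member at chr7:45927959-45933259. IGFBP2 at chr2:217497551-217529159 lies 7.67 kb from IGFBP5 at chr2:217536828-217560272. IGFBP4 is at chr17:38599702-38613977, IGFBP6 at chr12:53491220-53496129 and IGFBP7 at chr4:57896939-57976551. The receptor genes are IGF1R at chr15:99191768-99507759, IGF2R at chr6:160390114-160534539 and INSR at chr19:7112266-7294425. The MANE Select transcripts have 4 exons in IGFBP2, IGFBP4 and IGFBP6, 5 in IGFBP3 and IGFBP7, 21 in IGF1R, 22 in INSR and 48 in IGF2R.

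SMARCA4, the edited gene, was lower in every KO sample. Its log2 level was 6.61, 6.62 and 6.68 in the MDA-MB-468 controls and 5.35, 5.48 and 5.61 in the KO samples, a change of -1.16 ± 0.08 (SE, limma adjusted p = 0.0137). That call was lost without control replicate 2 or 3 or KO replicate 2 (adjusted p 0.057 to 0.075), and with a block by the p number of the sample descriptions (adjusted p = 0.14). In MDA-MB-231 cells it was 6.10, 6.18 and 6.09 in controls and 4.46, 4.64 and 4.56 in KO samples (-1.57 ± 0.06, limma adjusted p = 0.00143). The KO mean FPKM was 44.3% of the control mean in the MDA-MB-468 pools but 32.7% of it in the MDA-MB-231 pools, so the transcript was still present. Replicates correlated at 0.989 to 0.995 within a group. By limma, 6 of 6 basal epithelial markers were higher in MDA-MB-468 controls, with KRT6B listed at 0 in all MDA-MB-231 samples. Of 5 measured mesenchymal-like markers, 4 were higher in MDA-MB-231 controls and the other, CD44, was lower there. Of all genes, 32.7% were called higher and 31.4% lower in MDA-MB-468 controls. CDH1, KRT5, KRT6B and KRT16 were near 0 in MDA-MB-231 controls, and AXL and ZEB1 in MDA-MB-468 controls. The study's filter on the mean and SD of FPKM kept these genes only through the line where they are high, which fixed their direction. Summed over the list, basal markers ran from 1233 to 1469 FPKM in MDA-MB-468 controls and from 50.02 to 54.7 FPKM in MDA-MB-231 controls. No fibroblast marker of the 5 listed has a row, and the 1 leukocyte marker with a row, CD14, had a mean log2 level of 5.66 in MDA-MB-468 controls. Nothing in the labels states that replicates were separate cultures, so p-values measure the spread between these samples, which may be technical. Read depth is unknown, and in bulk samples fewer cells with a transcript and less transcript per cell cannot be told apart.

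The control samples of the cell lines were compared first. IGFBP2 and IGFBP3 were higher in MDA-MB-468 cells, IGFBP4, IGFBP6 and IGFBP7 higher in MDA-MB-231 cells, and the receptors lay close together. By limma, 5 of 8 members were called, with a Benjamini-Hochberg adjusted p below 0.05 and a log2 difference beyond 0.5 in size, against 64.1% of all 11529 genes in this comparison, so the count of members is near the background. Without overlap of the 3 against 3 samples, 2 members were higher and 4 lower in MDA-MB-468 controls, against 43.2% and 42.3% of all genes (85.5% together). Members had passed the study's filter, which keeps genes with a mean and an SD of FPKM of at least 1. IGFBP7 had a mean under 1 FPKM in MDA-MB-468 samples and IGFBP2 in MDA-MB-231 samples. IGFBP6 ran only from 0.76 to 1.47 FPKM in MDA-MB-468 samples, too narrow for the SD limit. Each of these passed only through the other line. The filter thus fixed the direction of their line differences, and the p-values below add no support for it. IGF1R and INSR had an SD under 1 within each line and passed only over both lines. For them the filter favoured a line difference without fixing its direction.

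**Figure D1:**
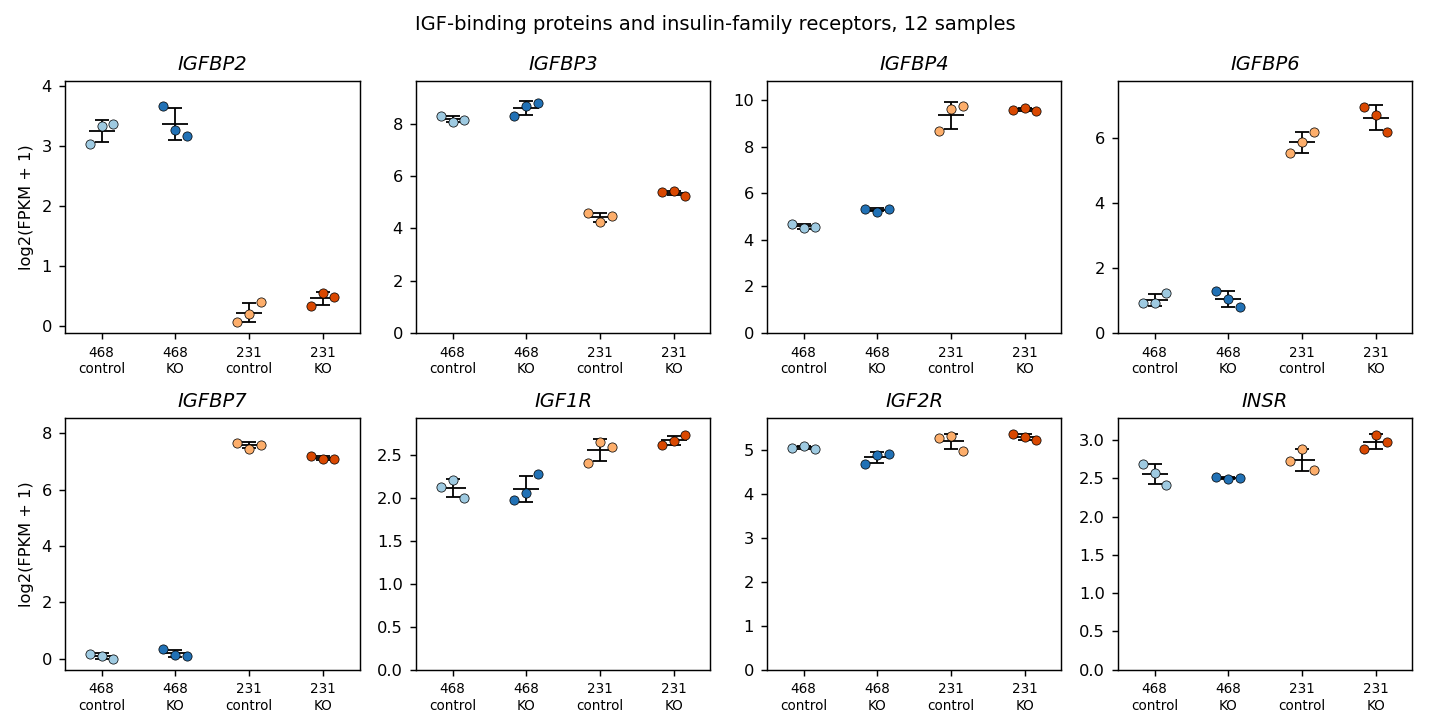
Levels of the 8 members as log2(FPKM + 1) in each of the 12 samples, in 4 columns by cell line and genotype (points: samples, bars: mean and SD). IGFBP7 lies above 7 in every MDA-MB-231 sample and under 0.4 in every MDA-MB-468 sample, while IGF1R, IGF2R and INSR span less than 1 unit each over all samples.

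Among the carriers, IGFBP3, the main IGF carrier of serum, had log2 levels of 8.30, 8.06 and 8.15 in MDA-MB-468 controls and 4.59, 4.24 and 4.46 in MDA-MB-231 controls. The mean FPKM was 288 ± 24.2 (SD, n = 3) against 20.6 ± 2.59 (SD, n = 3), 13.9-fold higher, and the log2 difference was 3.74 ± 0.11 (SE, limma adjusted p = 2.49e-08). Every MDA-MB-468 control lay above every MDA-MB-231 control. IGFBP2, a carrier made in many tissues, was at 3.04, 3.34 and 3.36 against 0.07, 0.20 and 0.39, a difference of 3.03 (limma adjusted p = 1.38e-07). As IGFBP2 had a mean of 0.17 FPKM in MDA-MB-231 controls, its size depends on the pseudocount and was 5.11 with 0.1 in place of 1.

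IGFBP4, an inhibitor of IGF action that the protease PAPP-A removes, had log2 levels of 4.68, 4.49 and 4.56 in MDA-MB-468 controls and 8.67, 9.60 and 9.76 in MDA-MB-231 controls. The groups did not overlap, and the difference was -4.76 ± 0.26 (SE, limma adjusted p = 8.58e-07). MDA-MB-231 control replicate 1 stood below the other 2 controls of its group, at 406 FPKM against 773 and 865. IGFBP6, which binds IGF2 in preference to IGF1, was at 0.91, 0.93 and 1.24 against 5.55, 5.86 and 6.18, with a difference of -4.83 (limma adjusted p = 6.22e-08). Its direction was fixed by the filter, through the SD limit.

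IGFBP7 had log2 levels of 0.19, 0.11 and 0.00 in MDA-MB-468 controls, the last listed at 0, and 7.67, 7.45 and 7.58 in MDA-MB-231 controls. The difference was -7.47 ± 0.09 (SE, limma adjusted p = 4.32e-10), the greatest of the 8 members. IGFBP1, the family member outside the chosen list, followed the same order, at 0.07, 0.11 and 0.00 against 3.85, 3.62 and 3.89 (-3.73, limma adjusted p = 9.17e-09). Its mean was 0.0433 FPKM in MDA-MB-468 controls and 0.17 in KO samples, so it too passed the filter only through MDA-MB-231 cells. For IGFBP7 and IGFBP1 the direction was therefore fixed by the filter.

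The receptors differed far less. IGF1R, the signaling receptor for IGF1, was at 2.12, 2.21 and 2.00 in MDA-MB-468 controls and 2.41, 2.65 and 2.59 in MDA-MB-231 controls, so that the groups did not overlap. Its difference was -0.44 ± 0.09 (SE, limma adjusted p = 0.00255), below the 0.5 needed for a call, which it reached without MDA-MB-231 control replicate 1 (-0.51). As IGF1R met the SD limit of the filter only over both lines, this p-value adds little. IGF2R was at 5.06, 5.09 and 5.04 against 5.29, 5.31 and 4.99 (-0.14, 95% interval -0.36 to 0.09), and INSR at 2.69, 2.57 and 2.42 against 2.73, 2.89 and 2.60 (-0.18, 95% interval -0.42 to 0.06), and neither passed the test.

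Within a group the order of members by length-scaled level, FPKM, could be read directly. In MDA-MB-468 controls it ran from IGFBP3 through IGF2R, IGFBP4, IGFBP2, INSR, IGF1R and IGFBP6 to IGFBP7, and no neighbours had overlapping ranges. In MDA-MB-231 controls it ran IGFBP4, IGFBP7, IGFBP6, IGF2R, IGFBP3, INSR, IGF1R and IGFBP2, with only INSR and IGF1R overlapping. In KO samples IGFBP4 stood above IGF2R in MDA-MB-468 cells, while IGFBP3 and IGF2R overlapped in the other line.

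Summed over IGFBP1, IGFBP2, IGFBP3, IGFBP4, IGFBP6 and IGFBP7, the FPKM was 320 ± 24.7 (SD, n = 3) in MDA-MB-468 controls and 962 ± 244 (SD, n = 3) in MDA-MB-231 controls. IGFBP3 made up a mean of 89.8% of this sum in the former and 2.29% in the latter. IGFBP4 took 7.15% and 69.3%, the latter from 58.8% in replicate 1 to 74.8%, and in MDA-MB-231 controls IGFBP7 took 20.8% and IGFBP6 6.10%. FPKM shares describe RNA and not secreted protein.

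SMARCA4 KO was then compared with control in MDA-MB-468 cells. IGFBP4 rose, and no other member passed the test. Its log2 level was 4.68, 4.49 and 4.56 in controls and 5.30, 5.21 and 5.33 in KO samples, all 3 above every control. The mean FPKM went from 22.9 ± 1.59 to 38.0 ± 1.69 (SD, n = 3 each), 1.66-fold, and the log2 change was 0.71 ± 0.07 (SE, 95% interval 0.54 to 0.87, limma adjusted p = 0.0145). The call was 1 of 8 members, against 2.14% of all genes called in this comparison (1.33% higher and 0.815% lower). It held without control replicate 1 or KO replicate 1, and was lost without control replicate 2 (0.67, limma adjusted p = 0.081), control replicate 3 (0.70, adjusted p = 0.063), KO replicate 2 (0.74, adjusted p = 0.075) or KO replicate 3 (0.68, adjusted p = 0.070). It was also lost in 1 fit of all 12 samples (limma adjusted p = 0.053). With the replicate block it was kept, and with a block by the number after the letter p in the sample descriptions it was lost (adjusted p = 0.14). No gene at all was called with that block.

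IGFBP3 in the same cells was at 8.30, 8.06 and 8.15 in controls and 8.30, 8.69 and 8.80 in KO samples. The lowest KO sample was just above the highest control, 315 against 314 FPKM. Its change was 0.43 ± 0.14 (SE, 95% interval 0.07 to 0.78, limma adjusted p = 0.145) and it was not called, though it was called without KO replicate 1 (0.57, adjusted p = 0.040). IGF2R was at 5.06, 5.09 and 5.04 in controls and 4.69, 4.90 and 4.92 in KO samples, the KO samples lower without overlap, with a change of -0.23 (95% interval -0.41 to -0.04, limma adjusted p = 0.139).

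For the other 5 members the MDA-MB-468 groups overlapped. IGFBP2 gave 3.67, 3.27 and 3.16 in KO samples (0.12, 95% interval -0.28 to 0.52), and IGFBP6 gave 1.30, 1.04 and 0.82 (0.03, 95% interval -0.35 to 0.40). IGFBP7 was near 0, at 0.34, 0.15 and 0.11. The signaling receptors differed by small amounts, IGF1R by -0.01 (95% interval -0.25 to 0.23) and INSR by -0.05 (95% interval -0.24 to 0.13). In all, 2 members were higher and 1 lower without overlap, and of all genes 17.5% were higher and 13.5% lower without overlap, 31% in all. No member was called lower by limma, and 3 of the 8 members had an unadjusted p under 0.05, as did 25.1% of all genes.

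In MDA-MB-231 cells IGFBP3 rose with SMARCA4 KO. Its log2 level was 4.59, 4.24 and 4.46 in controls and 5.37, 5.42 and 5.25 in KO samples, with no overlap. The mean FPKM went from 20.6 ± 2.59 to 39.8 ± 2.53 (SD, n = 3 each), 1.93-fold, and the log2 change was 0.92 ± 0.10 (SE, 95% interval 0.67 to 1.17, limma adjusted p = 0.0109). This was 1 of 8 members, against 3.7% of all genes called (2.39% higher and 1.31% lower). IGFBP3 was thus higher in every KO sample than in every control of its own line in both lines, by 0.43 and 0.92, but was called in MDA-MB-231 cells alone. By RT-qPCR, a different measure, the paper reports higher IGFBP3 RNA in MDA-MB-468 KO cells than in control cells. The call was lost without KO replicate 1 (0.91, limma adjusted p = 0.050) and without KO replicate 2 (0.88, adjusted p = 0.060), and kept in the other 4 omissions.

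IGFBP7 was at 7.67, 7.45 and 7.58 in MDA-MB-231 controls and 7.20, 7.09 and 7.08 in KO samples, every KO sample lower. The change of -0.44 ± 0.07 (SE, 95% interval -0.62 to -0.26) had a limma adjusted p of 0.0253 but did not reach the size of 0.5 needed for a call. Mean FPKM in KO samples was 73.4% of that in controls. Without control replicate 2 it passed both limits (-0.50, adjusted p = 0.040).

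IGFBP6 was at 5.55, 5.86 and 6.18 in MDA-MB-231 controls and 6.94, 6.72 and 6.19 in KO samples. KO replicate 3 lay just above the highest control, and the change was 0.75 ± 0.24 (SE, 95% interval 0.15 to 1.35, limma adjusted p = 0.102). It was called in 1 fit of all 12 samples (adjusted p = 0.029).

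IGFBP4 was at 8.67, 9.60 and 9.76 in MDA-MB-231 controls and 9.59, 9.67 and 9.53 in KO samples, and the ranges overlapped. The change was 0.25 (95% interval -0.46 to 0.96) and turned to -0.08 without control replicate 1. IGFBP2 was at 0.07, 0.20 and 0.39 in controls and 0.33, 0.56 and 0.49 in KO samples (0.24, 95% interval -0.01 to 0.49). The receptors overlapped between the groups: IGF1R was at 2.61, 2.66 and 2.72 in KO samples (0.12, 95% interval -0.07 to 0.31), IGF2R at 5.38, 5.30 and 5.24 (0.11, 95% interval -0.14 to 0.36) and INSR at 2.88, 3.07 and 2.98 (0.24, 95% interval 0.01 to 0.46, limma adjusted p = 0.144). In this line 2 members were higher and 1 lower without overlap, while of all genes 16.6% were higher and 19.4% lower without overlap, 36% in all. No member was called lower by limma, and 4 of the 8 had an unadjusted p under 0.05, as did 31.2% of all genes. Beside these results in MDA-MB-231 cells, 1 of 6 basal markers rose (CDH1, 0.54, limma adjusted p = 0.0442), 1 of 5 mesenchymal-like markers fell (LOX, -0.54, adjusted p = 0.0393), and CD14 rose by 1.18 (adjusted p = 0.0294). The summed mesenchymal-like markers ran from 1947 to 2253 FPKM in controls and 1699 to 1899 in KO samples, the basal ones from 50.02 to 54.7 and 53.4 to 59.1, and CD14 from 0.79 to 1.39 and 2.65 to 4.9. Their part in the members' changes was not tested.

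**Figure D2:**
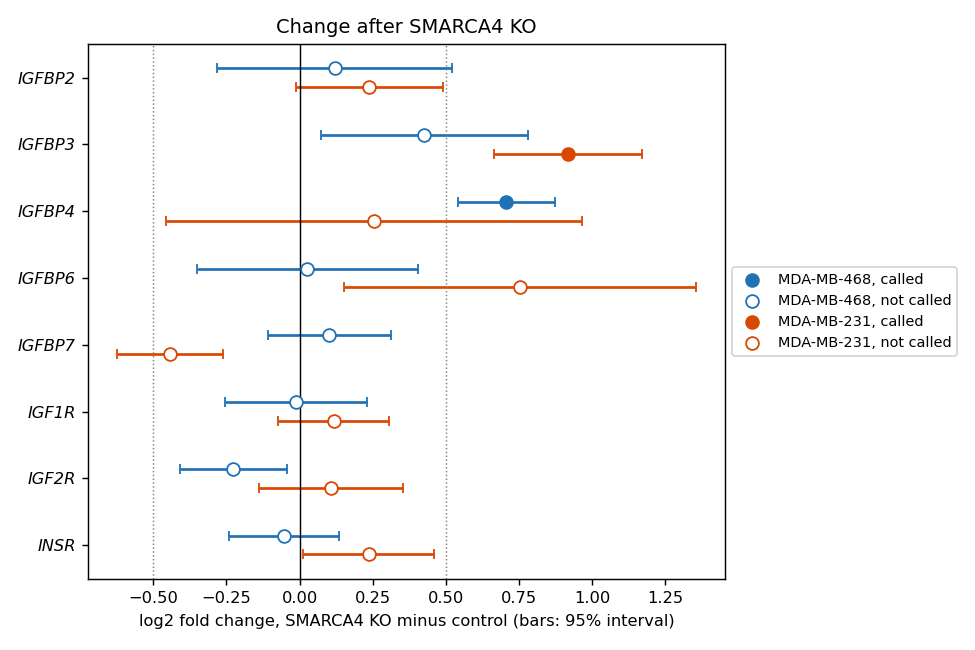
Log2 change of each member in SMARCA4 KO against control for each cell line, with 95% intervals from limma, filled points for called members and dotted lines at -0.5 and 0.5. IGFBP4 stands at 0.71 in the MDA-MB-468 comparison and IGFBP3 at 0.92 in the MDA-MB-231 comparison, and the intervals of IGF1R include 0 in both.

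The KO changes of the 2 lines were compared by the interaction of 1 fit over all 12 samples. IGFBP7 was the 1 member of 8 called, at 0.54 ± 0.12 (SE, 95% interval 0.28 to 0.81, limma adjusted p = 0.0147), with 8.71% of all genes called (4.29% higher and 4.41% lower). It is the change of 0.10 in MDA-MB-468 cells, where the gene was near 0 in both genotypes, minus the change of -0.44 in the other line. A gene this low could not fall measurably in MDA-MB-468 cells, so the test adds little to the MDA-MB-231 values. With a pseudocount of 0.1 it was not called (1.01, adjusted p = 0.147), nor with quantile normalization (0.43) or the block by p number (adjusted p = 0.054), nor without MDA-MB-231 control replicate 1, MDA-MB-468 control replicate 3 or MDA-MB-468 KO replicate 1, where it was 0.49, 0.49 and 0.47. IGFBP3 (-0.49, adjusted p = 0.0883), IGFBP4 (0.45, adjusted p = 0.319) and IGFBP6 (-0.73, adjusted p = 0.111) did not pass, so a call in 1 line and not the other was not shown to differ between lines. For IGFBP4 the difference was 0.79 (limma adjusted p = 0.0029) without MDA-MB-231 control replicate 1. The KO and line comparisons share the control samples.

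The ratio of INSR to IGF1R, in FPKM, was 1.48 ± 0.13 in MDA-MB-468 controls and 1.44 ± 0.20 in KO samples (SD, n = 3 each). It was 1.18 ± 0.15 in MDA-MB-231 controls and 1.29 ± 0.088 in KO samples. IGF2R to IGF1R was 9.77 ± 0.76 and 8.41 ± 0.75 in MDA-MB-468 controls and KO samples, and 7.44 ± 1.36 and 7.23 ± 0.70 in those of MDA-MB-231 (SD, n = 3 each). The summed IGFBP FPKM was 439 ± 64.6 (SD, n = 3) in MDA-MB-468 KO samples, from 367 to 492 against 298 to 347 in their controls, without overlap. In MDA-MB-231 KO samples it was 1061 ± 61.8 (SD, n = 3), inside the control range of 691 to 1162. These sums and ratios were not tested. In MDA-MB-231 cells the share of IGFBP7 was 29.3%, 16.8% and 16.4% in controls and 13.5%, 12.2% and 13.5% in KO samples, and that of IGFBP3 was 3.34%, 1.74% and 1.80% against 3.73%, 3.78% and 3.73%. Control replicate 1, which had the lowest IGFBP4, had the highest share of both genes among the controls.

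Further genes of the pathway came from lists chosen with earlier results of these data known. The ligand genes IGF1, IGF2 and INS have no row, and of 7 listed ligands, carriers and receptors outside the member list 2 have a row, with none called in either line by limma (0 and 1 at an unadjusted p under 0.05). Of 5 measured IGFBP proteases and inhibitors, 1 was called lower in MDA-MB-468 cells, while in the other line 1 was called higher and 1 lower. In each line 3 of the 5 had an unadjusted p under 0.05, against 25.1% and 31.2% of all genes. HTRA1, a secreted serine protease, was at 1.22, 0.99 and 1.07 in MDA-MB-468 controls and 0.23, 0.50 and 0.52 in KO samples (-0.68 ± 0.10, SE, limma adjusted p = 0.0354, and 0.077 with the replicate block). Its mean FPKM in these KO samples was 29.6% of the control mean, and with a pseudocount of 0.1 the change was -1.56 and not called (adjusted p = 0.056). In MDA-MB-231 cells it was at 5.18, 5.34 and 5.53 against 4.71, 4.86 and 4.82 (-0.56 ± 0.10, adjusted p = 0.0292). The groups did not overlap in either line, and the call was kept in 1 of 6 omissions of a replicate in each, without KO replicate 1 of MDA-MB-468 (adjusted p = 0.034) or control replicate 1 of MDA-MB-231 (adjusted p = 0.037). ADAM28, a metalloprotease reported to cleave IGFBP3, rose in MDA-MB-231 cells from 1.14, 1.74 and 1.88 to 2.90, 2.84 and 2.43 (1.14 ± 0.23, adjusted p = 0.0374), a call lost in each of the 6 omissions (adjusted p 0.056 to 0.124).

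Of 18 measured receptor substrates, adaptors and inhibitors, 1 was called higher in MDA-MB-468 cells, and 2 were called lower in the other line. In each line 6 of 18 had an unadjusted p under 0.05, against 25.1% and 31.2% of all genes. The interaction called 4 of them higher and 1 lower, against 8.71% of all genes. IRS1 and IRS2 were higher in every MDA-MB-468 KO sample than in every control, 2.07-fold and 2.34-fold in mean FPKM, but were not called. Of all genes, 17.5% were higher without overlap in that comparison. IRS1 was low there, at a mean of 0.937 FPKM in controls and 1.94 in KO samples. Of the 18 genes, 11 were higher and 7 lower in that line. SOCS2, a feedback inhibitor of growth hormone signaling, rose from 0.68, 0.74 and 0.51 to 1.62, 1.53 and 1.56 in MDA-MB-468 cells (0.93 ± 0.07, SE, limma adjusted p = 0.0145), 1.66 with a pseudocount of 0.1, a call lost without control replicate 1 or 2 or KO replicate 2 or 3 (adjusted p 0.051 to 0.075). It fell in MDA-MB-231 cells from 2.64, 2.46 and 2.08 to 0.88, 1.04 and 0.94 (-1.44 ± 0.15, SE, adjusted p = 0.00972), lost only without KO replicate 2 (adjusted p = 0.051). The changes differed by 2.37 (limma adjusted p = 2.66e-05). ENPP1, an inhibitor of the insulin receptor, fell in MDA-MB-231 cells from 3.81, 3.86 and 3.79 to 3.01, 2.91 and 2.81 (-0.91 ± 0.06, SE, adjusted p = 0.00513), called in all 6 omissions.

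**Figure D3:**
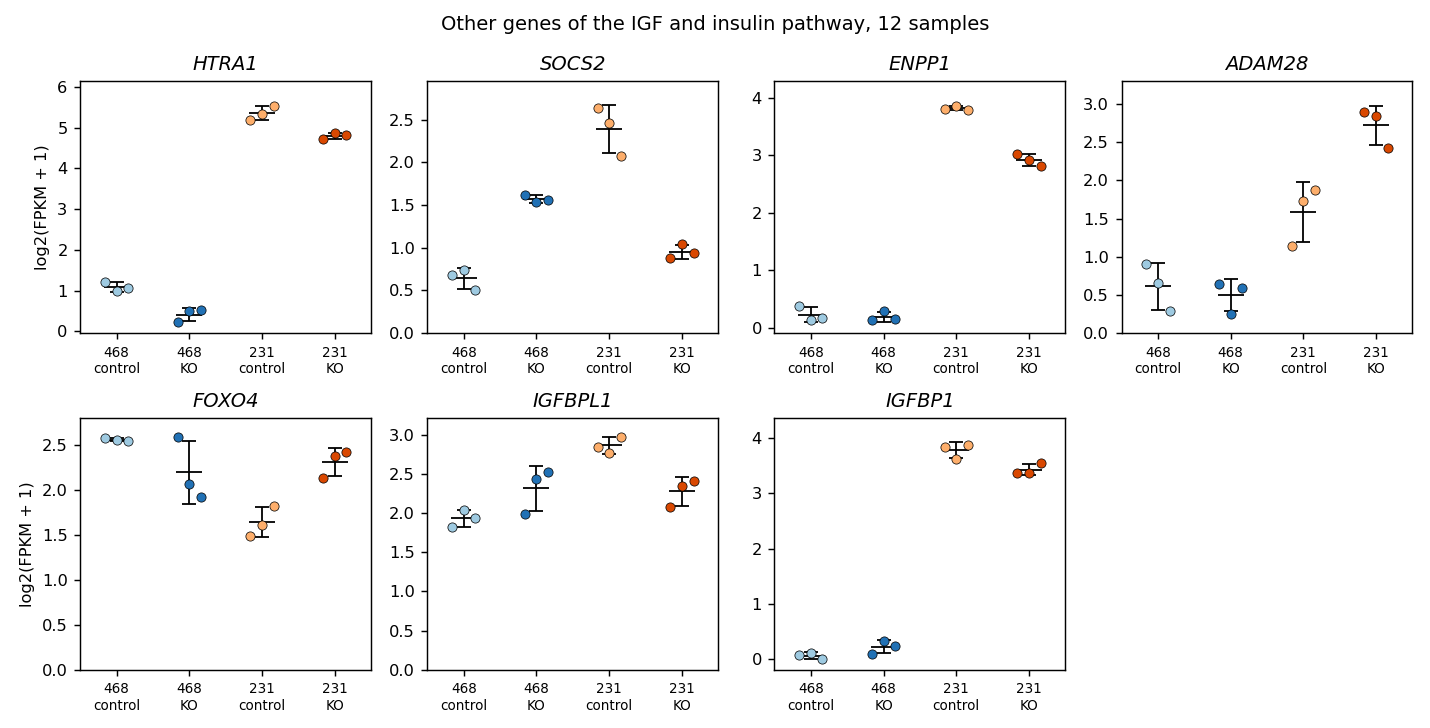
Levels of 6 pathway genes called in a KO comparison, and of IGFBP1, as log2(FPKM + 1) in each of the 12 samples (points: samples, bars: mean and SD). SOCS2 moves up in MDA-MB-468 KO samples and down in MDA-MB-231 KO samples, and HTRA1 moves down in both lines.

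Of 29 measured PI3K, AKT, mTOR and FOXO genes, 1 was called higher in MDA-MB-231 cells and 0 lower by limma. At an unadjusted p under 0.05 there were 7, against 31.2% of all genes. FOXO4, a transcription factor that AKT kinases keep outside the nucleus, rose there from 1.49, 1.61 and 1.82 to 2.13, 2.37 and 2.42 (0.67 ± 0.12, SE, adjusted p = 0.0277), kept only without control replicate 3 (otherwise adjusted p 0.055 to 0.104). Of 6 measured proteins that carry an IGFBP domain outside the family, 1 was called lower in MDA-MB-468 cells, HTRA1, which is on both lists. All 6 had an unadjusted p under 0.05 there, against 25.1% of all genes, and 3 were higher and 3 lower. In the other line all 6 were lower, as were 5935 of all 11529 genes. Of the 6, 3 had an unadjusted p under 0.05, against 31.2% of all genes. The groups overlapped for CYR61, CRIM1 and KAZALD1, the last at 98.3% of its control mean FPKM. Called lower there were 2, HTRA1 and IGFBPL1, the latter from 2.85, 2.77 and 2.98 to 2.07, 2.35 and 2.41 (-0.59, adjusted p = 0.0315, lost in all 6 omissions). The interaction called 3 of the 6, against 8.71% of all genes. None of 2 measured IGF2 mRNA-binding proteins or 5 mannose 6-phosphate sorting genes was called in either line by limma. At an unadjusted p under 0.05 there were 1 of 2 and 4 of 5 such genes in MDA-MB-468 cells, against 25.1% of all genes. There were 1 of 2 and 0 of 5 in the other line, against 31.2%. Of the 5 sorting genes, 2 were higher and 3 lower in MDA-MB-468 cells. The median change of the members was 0.06 in MDA-MB-468 cells, and it was 0.24 in MDA-MB-231 cells, against 0.02 and -0.01 over all genes.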

How the data were processed

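RNA of 12 samples was sequenced from TruSeq Stranded mRNA libraries. After read trimming (Trimmomatic) and alignment to hg19 (STAR), the authors used RSEM for gene FPKM. Genes whose FPKM had a mean or SD below 1 were dropped, and the deposited values are log2(FPKM + 1). Neither counts nor depth are given, so precision rests on the spread between replicates. Groups came from the sample titles, and 0 columns were unmapped.

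For each line a separate model was fitted (limma 3.58.1, R 4.3.3) to the deposited log2 values of 11529 genes (lmFit, eBayes, no trend), 3 KO against 3 controls. A gene was called at a Benjamini-Hochberg adjusted p under 0.05 over all genes and an absolute log2 change over 0.5. Controls of the lines were compared with the 6 control samples, and KO changes by the interaction in 1 fit of 12 samples. Symbols were matched exactly. Members and gene lists were chosen with earlier results of these data known. Named genes were SMARCA4, all members, up to 4 called genes per list and comparison with the largest change, and the 3 genes most and least correlated with each called member. IGFBP1 and the line markers are given beside them. Some results that this rule names are not reported here. Alternatives were a pseudocount of 0.1, a filter on mean log2 over 2, an intensity trend, scaling to the 75th percentile, quantile normalization, a log2 change over 1, 1 fit of all samples, blocks by replicate number or, in MDA-MB-468 cells, by the number after the letter p in the descriptions, whose meaning is not given in the sources used here, and leaving out each replicate.

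In MDA-MB-468 cells same-numbered control and KO samples, numbered by the titles, had deviations that correlated at 0.25, 0.16 and 0.12. Control replicate 3 with KO replicate 2 gave 0.13, so a pairing was not shown. Samples that share a p number gave -0.23 (control replicate 1 with KO replicate 2) and 0.03 (control replicate 2 with KO replicate 3). A pairing by that number was not shown either. In the block by p number, control replicate 3 and KO replicate 1 had no partner and were put in 1 common block. The main tests did not pair samples, and the replicate block was an alternative only. Code was tested on simulated data. Python 3.11.15 and matplotlib 3.10.9 were used for values and figures.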

Additional observations from a re-analysis of the deposited data

Results flagged for a closer look

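For 7 of the genes named, the interaction test of limma over 12 samples gave an adjusted p under 0.05, over all genes, for the difference between the KO changes of the cell lines. Among the members this was IGFBP7, at 0.54 on the log2 scale (adjusted p = 0.0147). IGFBP7 had a mean of 0.0733 FPKM in MDA-MB-468 controls and 0.153 in the KO samples, where it could not fall measurably, so this value mostly restates its change in MDA-MB-231 cells. The call was lost in 4 of 8 other settings, among them a pseudocount of 0.1 (adjusted p = 0.147). For SMARCA4 it was 0.41 (adjusted p = 0.027), the decrease being greater in MDA-MB-231 cells, but this is under the 0.5 needed for a call, was called in 0 of 12 omissions of a replicate and 0 of 8 other settings, and had an adjusted p of up to 0.077. Of the pathway genes, SOCS2 differed by 2.37 (adjusted p = 2.66e-05), IGFBPL1 by 0.97 (0.00833) and ENPP1 by 0.87 (0.00107). FOXO4 differed by -1.03 (adjusted p = 0.00996) and ADAM28 by -1.26 (adjusted p = 0.0186), both higher in the MDA-MB-231 change. With a pseudocount of 0.1 neither ENPP1 (adjusted p = 0.136), which was near 0 in MDA-MB-468 cells, nor ADAM28 (adjusted p = 0.092) was called. No explanation was tested.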

How the results depend on the processing

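Of 500 values of members under alternatives, 464 kept their direction and call, 18 lost the call, 8 gained it and 10 turned direction. In MDA-MB-468 cells the count of called members was 1 and went to 0 with a log2 change over 1, in 1 fit of all 12 samples and with a replicate block by p number, and ran from 0 to 2 when a replicate was left out. In MDA-MB-231 cells it was 1 and went to 0 with a log2 change over 1 or with the replicate block, to 2 in 1 fit of all samples, and from 0 to 2 when a replicate was left out. The difference between lines was 1 and went to 0 with a pseudocount of 0.1, quantile normalization, a log2 change over 1 or a replicate block by p number, and from 0 to 2 when a replicate was left out. For the control lines the count was 5 and ran from 4 to 6 over all alternatives, IGF1R being called with a pseudocount of 0.1 or quantile normalization (-0.53 and -0.60). Calls over all genes in MDA-MB-468 cells were 247. They were 53 with a log2 change over 1, 537 in 1 fit of all 12 samples and 0 with the block by p number. With a replicate left out they ran from 0 to 474. In MDA-MB-231 they were 426, and 85, 0 and 567 with the log2 limit, the block and 1 fit. For the difference they were 1004, and 217 and 616 with the log2 limit and the block by p number, and for control lines 7395, and 4150 with the log2 limit. In MDA-MB-468 cells the values that changed sign were IGFBP6 at -0.072 with quantile normalization, and with a replicate left out IGFBP2 from -0.033 to 0.22, IGFBP6 from -0.099 to 0.15, IGF1R from -0.098 to 0.051 and INSR from -0.12 to 0.010. In MDA-MB-231 cells IGFBP4 ran from -0.081 to 0.46. The cause was not tested. In MDA-MB-231 cells the same replicate numbers gave correlations of -0.05, 0.07 and -0.11, so a pairing was not shown there either. With the replicate block the adjusted p of IGFBP3 there was 0.071. In MDA-MB-468 cells the block by the replicate number of the titles ended the call of HTRA1 and of no other gene named here. The block by p number left no gene called, so the calls of IGFBP4, SMARCA4, SOCS2 and HTRA1 ended with all others (adjusted p = 0.14 each).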

Other observations

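The genes whose level followed the called members most closely were listed by Pearson correlation over the 12 samples, after the mean of each cell line was subtracted, among 10170 genes with a mean log2 level over 2. These are descriptions without p-values, as the samples share the KO and control grouping and the genes were picked from many. For IGFBP3 they were PACS2 (0.96, Spearman 0.97), FMNL2 (0.96, Spearman 0.96) and SEPN1 (0.95, Spearman 0.94), and in the opposite direction CSTF2T (-0.99, Spearman -0.97) and BORA (-0.96, Spearman -0.92). For IGFBP4 they were PYGB (0.95, Spearman 0.93), NAT14 (0.95, Spearman 0.85) and CRABP2 (0.92, Spearman 0.80), and oppositely MANEA (-0.95, Spearman -0.93), DNAJC3 (-0.93, Spearman -0.85) and SRPR (-0.91, Spearman -0.82). Without the 2 samples farthest from the median, the IGFBP3 values lay between 0.92 and 0.96 or -0.99 and -0.97, and those of IGFBP4 between 0.82 and 0.92 or -0.93 and -0.87.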
